A study of Enallax costatus with 10 samples.

Results

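Drops of the green alga Enallax costatus (strain CCAP 276-31) that had been dried flat and then held in water again for 1 h were compared with drops that had never been dried. The compared genes were the assembly genes with 10 or more counts in at least 2 of the 4 libraries involved, chosen by that rule alone, and 14096 of the 32478 assembly genes (43.4%) met it. Per the labels' protocols, 6-week-old cultures grown in 150 mL of medium were set out as drops of 40 µL on round cover glasses. Rehydrated drops (2 libraries) had gone through drying before water was returned and were taken 1 h later. Dry drops (2 libraries), which serve here only as a neighbouring stage, were taken about 24 h into the course after staying flat for 11 h, and Early and Late desiccation (2 libraries each) had lost 25% and 60% of the volume at 2.5 h and 7.5 h. Hydrated drops (2 libraries) were taken straight after transfer to the glass. All stages share the strain, the culture age and the medium, and no treatment other than drying and rewetting is given in the labels. Nothing in the labels says that the paired libraries come from different cultures. P-values therefore reflect the spread between the libraries at hand, which may be technical.

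A drying algal cell loses turgor, its metabolism slows and then stops, and the dry cell can neither transcribe nor translate at a normal rate. When water returns, membranes and organelles are rehydrated quickly and photosynthesis, respiration and protein synthesis can restart. The transcripts found soon after rewetting are therefore a mixture of RNA kept through the dry state and RNA made since. Sequencing of this kind measures how the RNA of a drop is divided among genes. In bulk drops, fewer cells that hold a transcript and less of it per cell cannot be told apart. The deposited tables identify genes only by the assembler's identifiers, with no gene names, so the results below describe sets of genes by level, size, change and time course, and the labelled organism could not be checked against marker genes.

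Depth was lower after rewetting. The Rehydrated libraries held 1974807 and 2031430 expected counts (replicates 1 and 2), against 3611884 and 2808843 in Hydrated, and the members took 97.6% and 98.0% of the counts in Rehydrated, against 98.2% and 96.2% in Hydrated. Of the 14096 members, 3719 reached 10 counts in all 4 libraries and 4983 in both Hydrated libraries and 1 Rehydrated library. A further 4033 passed through both Hydrated libraries alone and 77 through both Rehydrated libraries alone, so for these the rule itself set which stage had more counts. The Hydrated libraries were deeper, so a gene at an unchanged level could also pass through Hydrated alone. The other members had 10 counts in 1 Hydrated and 1 Rehydrated library (935) or in 1 Hydrated and both Rehydrated libraries (349). At the edge of the rule, the 5045 members with exactly 2 such libraries had a median of 54 counts summed over the 4 libraries, and the 5150 genes just outside, with exactly 1, had a median of 22.

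Few genes held most of the Rehydrated counts, and this was also so in other stages. The 100 genes with the most counts held 63.9% and 85.2% of the counts in the Rehydrated libraries, against 40.4% and 42.6% in the Hydrated libraries. The 50% mark was reached by 38 and 14 genes in Rehydrated, against 252 and 238 genes in Hydrated. Late desiccation reached it with 10 and 39 genes and Dry with 73 and 63, and the 100 most counted genes of Late desiccation held 64.8% and 56.3%. Members at 10 or more counts numbered 9034 and 5174 in Rehydrated, against 12998 and 13756 in Hydrated, and members with no count at all numbered 877 and 2784 in Rehydrated, against 491 and 50 in Hydrated. In each of these measures both Rehydrated libraries lay on 1 side of both Hydrated libraries. With 2 libraries against 2, the two-sided exact permutation test of a single value cannot go below p = 0.333, so none of these differences can pass a test. Among the compared libraries, Rehydrated replicate 2 stood furthest from the rest in these measures, and some results are given with and without it below.

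**Figure D1:**
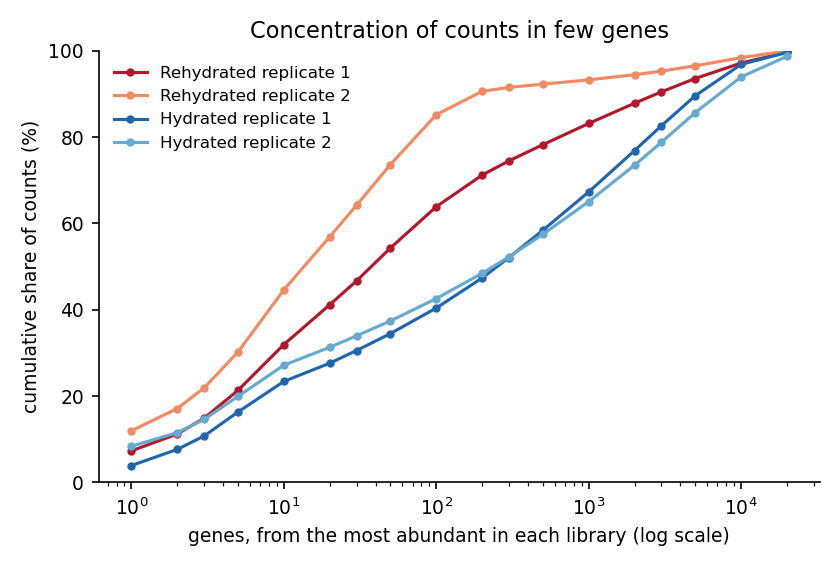
Cumulative share of library counts (y axis, %) against the number of genes taken from the most counted downwards (x axis, log scale), 1 line per library. The Rehydrated lines climb faster than the Hydrated lines: their first 100 genes held 63.9% and 85.2% of the counts, against 40.4% and 42.6% in Hydrated.

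How far the 2 Rehydrated libraries resembled each other decides how firmly any single gene can be read. Over the 13889 members that passed the low-count filter, the median absolute log2 difference between the libraries of a pair was 1.39 for Rehydrated and 0.46 for Hydrated (CPM, counts scaled to a common library size, here sizes scaled by TMM, a method that takes most genes as unchanged). The Rehydrated libraries lay within 2-fold of each other for 5249 members, against 11465 for the Hydrated libraries. The correlation within pairs differed by level, but the size of the difference did not fall steadily with level. In the quartile of genes with the highest mean CPM, the Pearson correlation of log2 CPM was 0.72 for Rehydrated and 0.83 for Hydrated. In the lowest quartile it was 0.099 and 0.14 (across genes, which are not independent replicates). These correlations also depend on the range of levels within a quartile, so they do not measure agreement alone. The median absolute log2 difference of the Rehydrated pair was 1.66 in the lowest quartile, 1.17 in the third and 1.39 in the highest. For the Hydrated pair it was 0.561, 0.391 and 0.444 in the same order. Both Rehydrated libraries lay within 2-fold of the Hydrated mean for 2941 tested members (21.2%). That number was 1063 (7.65%) when CPM was taken on total counts.

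The scaling chosen sets where no change lies. The TMM factors were 0.82 and 0.34 in Rehydrated, against 1.62 and 1.77 in Hydrated. The median log2 fold change of all 16190 tested genes, Rehydrated over Hydrated, was -0.09 with TMM, 0.08 with the size factors DESeq2 uses, 0.06 with upper-quartile scaling and -1.63 with total counts. A rise on the TMM scale is thus a rise relative to the bulk of genes, and a rise on total counts is a rise as a share of all counts. Directions below are on the TMM scale unless total counts are named. Both Rehydrated libraries lay above both Hydrated libraries for 2700 tested members and below them for 4758. Over all 16190 tested genes, 19.9% lay above and 31.6% below, and the members' 19.4% and 34.3% were near that background. On total counts, 437 tested members lay above and 9556 below, and on every scale tried 437 lay above and 4150 below.

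In the fit of all 10 libraries, 908 of the tested members differed between Rehydrated and Hydrated drops (edgeR quasi-likelihood test, Benjamini-Hochberg adjusted p under 0.05 over all 16190 genes, written below as called). Of these, 333 rose and 575 fell. The background over all tested genes was 5.79% called, 2.24% higher and 3.55% lower. Log2 fold changes had a median of 3.89 in the 333 (quartiles 2.89 and 5.01, median SE 0.75) and -3.31 in the 575 (quartiles -4.62 and -2.53, median SE 0.69), against -0.16 over all tested members. Changes past 8-fold made up 239 of the 333 and 337 of the 575. In all 908 the Rehydrated libraries did not overlap the Hydrated libraries, which is no separate support, since the calls rest on the same libraries. The direction split depended on scaling. Higher members made up 36.7% of the calls with TMM, 46.8% with the DESeq2-type factors, 45.7% with upper-quartile scaling and 3.65% with total counts. All 333 higher and all 575 lower members kept their sign on total counts, where 146 and 575 of them were called, with medians of 2.18 and -4.77. Total counts moved the median of all tested members down to -1.71. For the lower members the kept sign thus followed from the change of scale and is no check on them.

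These calls lean on the stages outside the comparison for their estimate of the spread. A fit of the 4 compared libraries alone called 0 members with edgeR (1847 at an unadjusted p under 0.05) and 398 with DESeq2, 359 of them among the 908 in the same direction. The number was 8 without Hydrated replicate 1, 328 without Hydrated replicate 2, 2823 without Rehydrated replicate 1 and 1648 without Rehydrated replicate 2. Leaving out a library of Early desiccation gave 431 or 438 calls and leaving out one of Dry gave 508 or 489. Omission of replicate 1 of Late desiccation gave 540.

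The libraries also fall into sets that cross the stages. Both Rehydrated libraries, together with replicate 2 of Late desiccation and of Hydrated, shared 147 genes with at least 3 counts in each and none in the other 6 libraries, against at most 19 for any other 4 libraries. Of these genes 93 were members, and 0 of the 93 were called by edgeR. By their choice they had counts in Hydrated replicate 2 and none in replicate 1, so they could hardly be called. The 147 genes held 0.0687% and 0.104% of the counts in the Rehydrated libraries, against 0% and 0.153% in Hydrated replicates 1 and 2. Within that set, which compares both Rehydrated libraries with Hydrated replicate 2 only, edgeR called 0 members (375 at an unadjusted p under 0.05), and with the set as a term in the full fit it called 486. The labels give no batch.

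Replicate pairs that share no library gave a direct view of repeatability. On log2 CPM with a prior count of 2, Rehydrated replicate 1 over Hydrated replicate 1 was at least 4-fold up for 1636 tested members and at least 4-fold down for 1820. Rehydrated replicate 2 over Hydrated replicate 2 was at least 4-fold up for 1200 and at least 4-fold down for 3742. Both pairs passed 4-fold upwards for 586 members and downwards for 955, and they disagreed in direction at that size for 192. With the Hydrated replicates exchanged, the numbers were 346, 839 and 240. The correlation of the paired log2 ratios across genes was 0.48, and 0.30 with the exchange, given as a description over 13889 members that share libraries within each ratio.

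**Figure D2:**
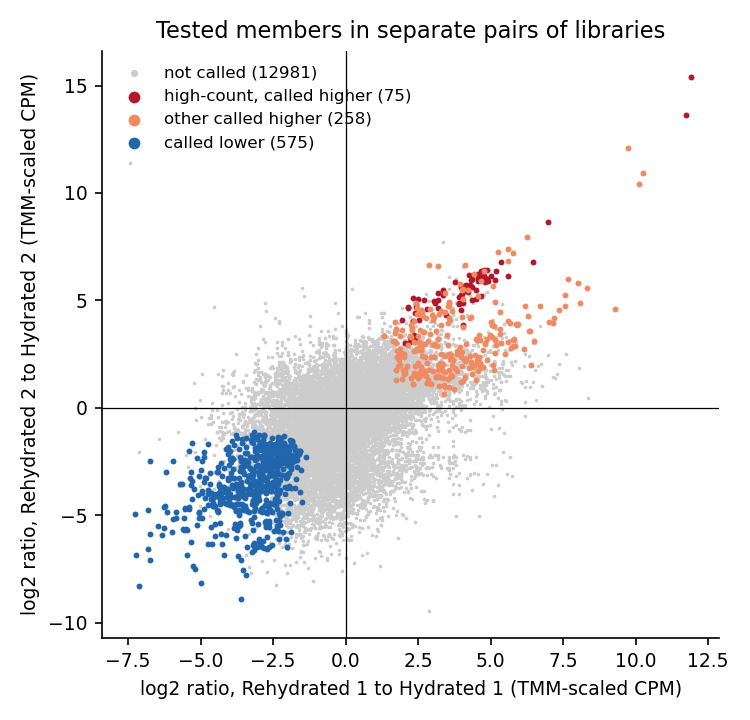
Log2 ratio of Rehydrated replicate 1 to Hydrated replicate 1 (x axis) against that of Rehydrated replicate 2 to Hydrated replicate 2 (y axis), both from TMM-scaled CPM, 1 point per tested member. All 333 members called higher lie in the upper right, the 75 with high counts mostly along the upper edge of the 258 others, and the 575 called lower members fill the lower left.

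The 333 members that rose were divided by their level after rewetting. A division at 1000 CPM of the library total in both Rehydrated libraries, chosen after the values were seen and so given without a test, left 75 high-count members above it and 258 below. The 75 high-count members took 38.8% and 55.7% of all counts in the Rehydrated libraries, against 5.37% and 6.89% in the Hydrated libraries. Their mean share was 47.25% ± 12 in Rehydrated and 6.13% ± 1.08 in Hydrated (SD, n = 2 each). Early desiccation libraries had given them 4.23% and 5.34%, Late desiccation libraries 7.87% and 7.94%, and Dry libraries 6.85% and 6.92%. A high share in Rehydrated follows from how the 75 were chosen. No library of an earlier stage gave them more than 7.94%. For 72 of the 75 both Rehydrated libraries lay above all other 8 libraries on TMM-scaled CPM. All 75 already lay above both Hydrated libraries, and the share over all tested genes was not counted. The median log2 fold change of the 75 against Hydrated was -0.58 after Early desiccation, 0.60 after Late desiccation, 0.82 in Dry and 5.02 in Rehydrated. The contrasts of the other stages use the same Hydrated libraries.

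The level that set the 75 high-count members apart was required in both Rehydrated libraries, which limits how far those libraries can differ. Their ratio of replicate 2 to replicate 1, as shares of the library, had a median of 1.44 with quartiles of 1.33 and 1.55, and was above 1 for 73 of 75. Past the same level, the 25 members that were not called had a median ratio of 1.08 (quartiles 0.734 and 1.27). In the Hydrated pair the 75 members had a median ratio of 1.43 (quartiles 1.08 and 1.74). On total counts 62 of the 75 were called higher. Without Hydrated replicate 1 edgeR called 1 of the 75 in this direction, without Hydrated replicate 2 it called 39, and without any 1 of the other libraries between 61 and 75. In the 4 compared libraries alone edgeR called 0 of the 75 and DESeq2 68.

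The 258 other members that rose took a larger share of the counts in the dry drops than in any other stage. The cut at 1000 CPM was made on the Rehydrated libraries and limits their share there, so this order follows in part from the choice. All 333 members that rose held 44.8% and 59.1% in Rehydrated, against 17.2% and 18.3% in Dry. The 258 held 6.03% and 3.37% of the counts in the Rehydrated libraries and 10.4% and 11.3% in the Dry libraries, against 0.822% and 1.15% in the Hydrated libraries. Early desiccation gave them 0.944% and 1.14%, and Late desiccation 1.69% and 1.11%. Median log2 fold changes against Hydrated were 0.04 after Early desiccation, 0.65 after Late desiccation, 3.19 in Dry and 3.47 in Rehydrated. Their depth was low: the median member had 175 and 39.5 counts in Rehydrated, against 49 and 43.5 in Hydrated. Both Rehydrated libraries lay above all other 8 libraries for 100 of the 258 on TMM-scaled CPM, again without a share over all tested genes. On total counts 84 of the 258 were called, and 154 had both Rehydrated libraries above both Hydrated libraries. Without Hydrated replicate 1 edgeR called 0 of the 258 in this direction, without Hydrated replicate 2 it called 46, without an Early desiccation library 124 or 125, without Late desiccation replicate 1 155, and without a Dry library 128 or 126. Taken over all 333 members that rose, both Dry libraries lay above both Hydrated libraries for 257 and below them for 18, on TMM-scaled CPM. Over all tested genes the shares were 26.3% above and 38.9% below. On total counts, a scale added for this count after the data were seen, 185 of the 333 lay above and 102 below, against 10.1% and 69.8% of all tested genes.

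**Figure D3:**
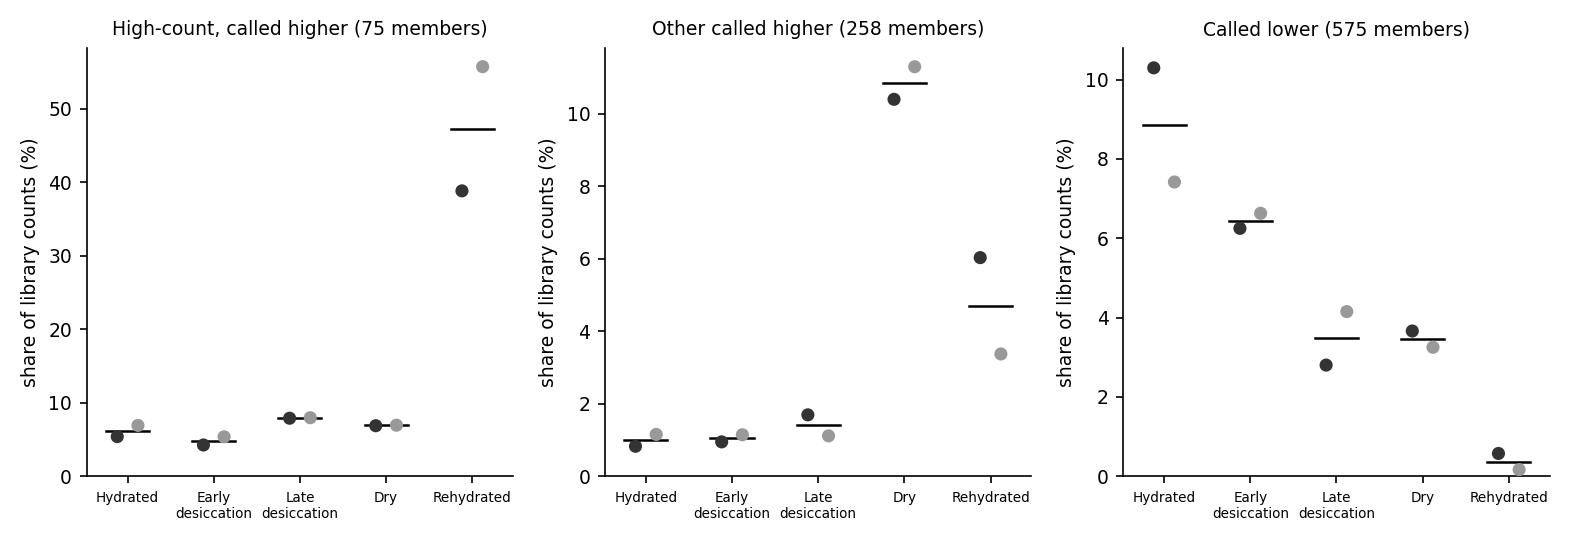
Share of library counts (y axis, %) held by the high-count members called higher, the other members called higher and the members called lower, by stage in the order of the course. Each point is 1 library (dark for replicate 1, grey for replicate 2) and the bar is the mean of the pair. The first set stands high in Rehydrated, the second is highest in Dry and the third is lowest in Rehydrated. Every set was chosen by its Rehydrated level against Hydrated, and the cut that divides the first 2 sets limits the Rehydrated share of the second.

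The 25 genes with the most counts in Rehydrated drops show what the high-count members looked like. They held 44.0% and 60.4% of the Rehydrated counts, against 15.02% and 21.97% of the Hydrated counts. Of the 25, 20 were called higher, none was called lower and 9 were also among the 25 most counted of Hydrated, in a list that leans towards higher genes by its choice. The gene in place 4 had 27443 and 47897 CPM of the library total in Rehydrated, against 432 and 619 CPM in Hydrated, and stood 188th in Hydrated (log2 fold change 8.15 in edgeR, SE 1.05, adjusted p = 0.00777). It had 271 and 386 CPM of the total in Dry, far below its level 1 h after water returned. The genes in places 8 and 9 had 19520 and 28150 CPM and 18074 and 25717 CPM in Rehydrated, against 1563 and 2175 CPM and 1526 and 1757 CPM in Hydrated. As shares of the library, both were also near their Hydrated level or below it in Dry, at 920 and 819 CPM and at 1562 and 1390 CPM. On total counts, the genes in places 7 and 10 differed from these in having been higher in Dry than in Hydrated. They had 22888 and 32139 CPM and 18284 and 24313 CPM in Rehydrated, against 3328 and 2868 CPM and 4435 and 3995 CPM in Hydrated, with 9284 and 8692 CPM and 8096 and 7612 CPM in Dry. This contrast is not one on the TMM scale. The TMM factors were 0.66 and 0.56 in Dry, against 1.62 and 1.77 in Hydrated, which raises Dry levels relative to Hydrated there.

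Some of the genes with most counts were near the top in both stages and were not called. The gene first in both stages had 73162 and 119708 CPM of the total in Rehydrated, against 37508 and 83851 CPM in Hydrated, and these ranges overlap. It was not called (log2 fold change 2.65 with TMM, edgeR adjusted p = 0.11, and 0.66 on total counts). The gene in place 5 had 36551 and 37199 CPM in Rehydrated, against 22881 and 30824 CPM in Hydrated (log2 fold change 2.30 with TMM and 0.45 on total counts, edgeR adjusted p = 0.0694 with TMM), and the gene in place 6 had 27863 and 33739 CPM in Rehydrated, against 30954 and 23651 CPM in Hydrated (2.05 with TMM and 0.17 on total counts, adjusted p = 0.11 with TMM). For these genes a p above the threshold does not show that the level was the same.

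Other genes with high counts in Hydrated drops held a small share after rewetting, and 3 of them were picked out after their values were seen. The gene in place 2 in Hydrated had 7010 and 3522 CPM of the total in Rehydrated, against 39115 and 31618 CPM in Hydrated. The genes in places 5 and 7 had 3468 and 2547 CPM and 3792 and 2311 CPM in Rehydrated, against 30818 and 22352 CPM and 24848 and 18204 CPM in Hydrated. All 3 fell on total counts (log2 fold changes -2.75, -3.15 and -2.82, edgeR adjusted p = 0.00743, 0.00637 and 0.00859), and none was called with TMM (-1.14, -1.42 and -1.16, adjusted p = 0.262, 0.202 and 0.293). In Dry the same genes were at 48112 and 57166, 42779 and 44879, and 45015 and 47234 CPM. As shares of the library, all 3 were higher in both Dry libraries than in either Hydrated library, and lower 1 h after rewetting. Among the 25 genes with the most counts in Hydrated, 5 were called higher, 3 lower and 17 were not called.

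Counts favour long transcripts, so the order above is not an order of level per length. The second deposited table is normalised for length. Of the 25 highest genes of Rehydrated in that table, 11 were among the 25 by counts, 14 were called higher and none was called lower, and 13 were also among the 25 highest of Hydrated there. Dividing counts by this table gave a relative length for 16173 of the 16190 tested genes, set to 1 at the median of each library. The high-count members that rose had a median relative length of 1.66, and 48 of 75 lay in the longest quartile. Long genes were also frequent among the most counted genes of either stage. Of the 100 genes with the most counts, 63 in Rehydrated and 53 in Hydrated lay in the longest quartile, with medians of 1.63 and 1.47. The other members that rose had a median of 1.08 and those that fell 1.03.

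Among the 4 genes named by rule, TRINITY_DN203705_c1_g1 had the largest rise in mean log2 CPM among the 319 eligible members. Fitted log2 fold changes of members called higher reached 17.0, so it is not the largest by that measure. It had 12010 and 16648 counts in the Rehydrated libraries, against 8 and 0 counts in the Hydrated libraries. It was 23rd by share of counts in Rehydrated. Its level was 16209 ± 12180 TMM-scaled CPM in Rehydrated and 0.693 ± 0.98 in Hydrated (SD, n = 2 each), and the model put the log2 fold change at 14.38 (edgeR adjusted p = 0.00777, SE 1.49). From the summed counts it was 16862-fold higher on TMM-scaled sizes and 5741-fold higher on total counts. The rise had begun during drying, as Early desiccation held 1651 and 2073 counts, Late desiccation 644 and 1687, and Dry 1542 and 2497. The call held without each single library in turn, with log2 fold changes between 9.38 and 18.65 over the alternatives that kept it, and was lost in the 4 compared libraries alone (14.55, adjusted p = 0.287) and within the library set that holds Rehydrated (18.39, adjusted p = 1).

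TRINITY_DN180147_c9_g8 had the highest CPM among the members that rose. It had 72526 and 93012 counts in Rehydrated, against 12884 and 20665 in Hydrated, which gave it place 3 in Rehydrated and place 10 in Hydrated. As a share of the library this was 36726 and 45787 CPM in Rehydrated, against 3567 and 7357 CPM in Hydrated, with no overlap. The fitted log2 fold change was 4.82 (SE 0.80, edgeR adjusted p = 0.0106), and 2.91 (SE 0.45) on total counts. It was at 7434 and 10283 CPM of the total in Dry, above both Hydrated libraries. The call was lost without Hydrated replicate 1 (4.43, adjusted p = 0.15), without Hydrated replicate 2 (5.37, 0.0539), in the 4 compared libraries alone (4.96, 0.323) and within the library set that holds Rehydrated (4.42, 1).

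The 575 members that fell were chosen for being lower in Rehydrated than in Hydrated, so a small Rehydrated share follows from the choice. They held 0.57% and 0.162% of the counts in the Rehydrated libraries, against 10.3% and 7.42% in the Hydrated libraries. Early desiccation gave them 6.25% and 6.63%, Late desiccation 2.80% and 4.15%, and Dry 3.66% and 3.25%. Median log2 fold changes against Hydrated were -0.15 after Early desiccation, -0.57 after Late desiccation, -0.69 in Dry and -3.31 in Rehydrated, beside -0.07, -0.10, -0.47 and -0.16 over all tested members in the same order. For 448 of the 575 both Rehydrated libraries lay below all other 8 libraries, a count whose share over all tested genes was not taken. Both Dry libraries lay below both Hydrated libraries for 328 and above them for 119, beside 38.9% and 26.3% of all tested genes. On total counts these were 520 below and 17 above, beside 69.8% and 10.1% of all tested genes. The Rehydrated libraries had no count for 102 of them. The median member had 8 and 2 counts in Rehydrated, under the 10 of the member rule, against 244 and 161 in Hydrated. Many thus entered through the Hydrated libraries alone, and the remaining level of most cannot be measured at this depth. Of the 575, edgeR called 6 in this direction without Hydrated replicate 1, 231 without Hydrated replicate 2, 236 or 242 without a library of Early desiccation, 307 or 292 without one of Dry, 308 or 370 without one of Late desiccation, and 474 or 501 without Rehydrated replicate 1 or 2. With limma voom and library weights 43 of them were called.

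Members with counts in 1 stage alone are given as a description, since most entered through the stage where they are high (4033 through Hydrated alone, 77 through Rehydrated alone) and the depths differ. Of the 14096 members, 429 had 10 or more counts in both Hydrated libraries and none in either Rehydrated library, and 9 had the reverse. At an unchanged TMM-scaled level the 429 would have had a median of 9.13 summed Rehydrated counts, against the 3 counts that a count of 0 allows, and 33 would have had more than 30. Of the 429, 102 were called lower, 237 had counts in both Dry libraries and 80 had none in either. When every library was thinned to 1974791 counts, 229 members were lost and 12 gained. Of the 9 gained members 6 were called higher and 3 had counts in both Dry libraries, and their counts ran from 10 to 3138 in Rehydrated replicate 1 and from 10 to 5010 in replicate 2. Floors cover counting error only.

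TRINITY_DN212527_c5_g2 had the largest fall in mean log2 CPM. It had no count in either Rehydrated library, against 462 and 871 counts in the Hydrated libraries. It was at least 94.4-fold lower in Rehydrated on TMM-scaled sizes and at least 277-fold lower on total counts, both taken against 3 counts summed over the stage (log2 fold change -11.80 in edgeR, SE 1.5, adjusted p = 0.00777). Early desiccation held 581 and 825 counts, Late desiccation 203 and 720, and Dry 10 and 23, so the level was already low in the dry drops. The call was lost with limma voom and library weights (-7.94, adjusted p = 0.197), in the 4 compared libraries alone (-11.70, 0.287) and within the library set that holds Rehydrated (-11.92, 0.61).

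TRINITY_DN185063_c10_g1 had the highest Hydrated CPM among the members that fell. It had 906 and 182 counts in Rehydrated, against 19989 and 10673 in Hydrated, and stood 212th in Rehydrated and 12th in Hydrated. Its level was 422 ± 213 TMM-scaled CPM in Rehydrated and 2837 ± 885 in Hydrated (SD, n = 2 each), and a log2 fold change in edgeR of -2.75 (adjusted p = 0.0333, SE 0.63) and -4.09 (SE 0.77) on total counts. In Dry it was at 4496 and 3620 TMM-scaled CPM, above both Hydrated libraries, but on total counts its Dry level of 2967 and 2003 CPM lay below the 5534 and 3800 CPM of Hydrated. On both scales the Rehydrated libraries lay below the Dry libraries. The call was lost without any 1 of the 8 libraries of Hydrated, Early desiccation, Late desiccation or Dry, with adjusted p between 0.0563 and 0.203 and log2 fold changes between -3.03 and -2.39. It was also lost with the library set as a term (-2.37, 0.118), in the 4 compared libraries alone (-2.63, 0.31) and within the library set that holds Rehydrated (-2.38, 1).

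**Figure D4:**
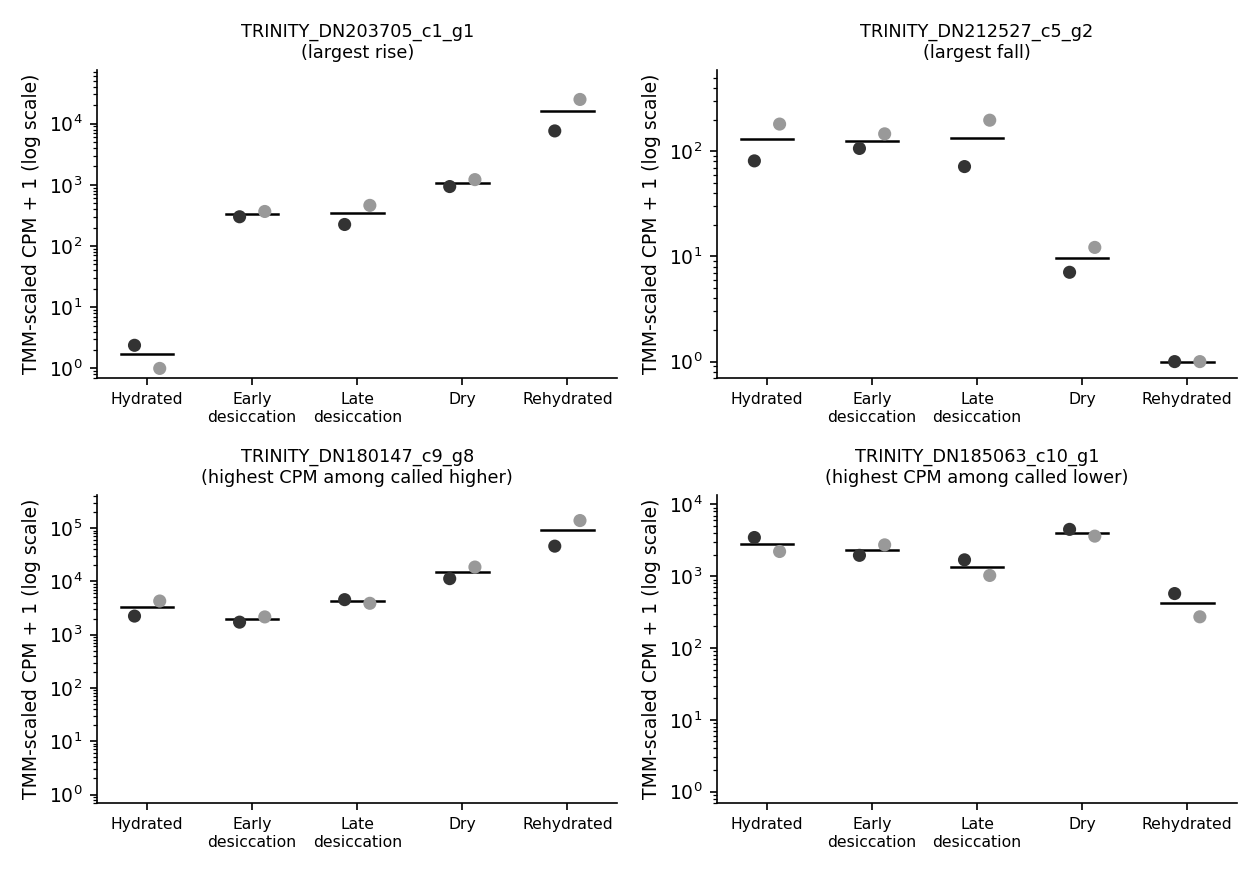
TMM-scaled CPM plus 1 (y axis, log scale) of the 4 named genes in every library, by stage in the order of the course. Points are single libraries (dark for replicate 1, grey for replicate 2) and bars are means; both genes at the left are highest in Rehydrated and both at the right are lowest there.

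Members with calls were also described by level, length and place in the assembly. The member rule is itself a cut on counts, so level is not separate from it. In the quartile of genes with the highest mean CPM over all 10 libraries, 272 of 4033 tested members were called higher (6.74%) and 324 lower (8.03%). In the lowest quartile 0 of 2085 were called higher and 4 lower by edgeR, and the median log2 fold change there was 0.23, against -0.47 in the highest quartile. Calls were more frequent at higher levels, but a call also needs enough counts, so this is not read as a trait of the members. By relative length, 133 of 3938 members in the longest quartile rose (3.38%) and 170 fell (4.32%), and 60 of 2820 in the shortest quartile rose (2.13%) and 111 fell (3.94%). The longest genes took 48.6% of the counts in each Rehydrated library, against 48.7% and 42.7% in Hydrated. The shortest took 30.5% and 37.7% in Rehydrated, against 19.7% and 27.3% in Hydrated, and both middle quartiles took less in Rehydrated.

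The assembler groups genes into components, the part of the identifier before the letter c, which can hold gene copies, fragments of a gene or unrelated sequences joined by shared stretches. In components of more than 10 genes, 32 of 291 tested members were called higher (11.0%) and 17 lower (5.84%). In components of a single gene, 137 of 5083 were called higher (2.70%) and 154 lower (3.03%). Of the 2505 components with 2 or more tested members, 396 held a call, 30 held 2 or more members called higher, 34 held 2 or more called lower and 11 held calls in both directions. In 6 components 4 or more members were called higher. These 6 held 57 tested members, of which 34 were called higher and 1 lower. Their 34 members took 15.4% and 22.6% of the counts in Rehydrated, against 2.41% and 2.47% in Hydrated. Reads shared between near-identical copies are divided among them by the authors' counting, so members of 1 component are not independent and single values in it are uncertain.

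**Figure D5:**
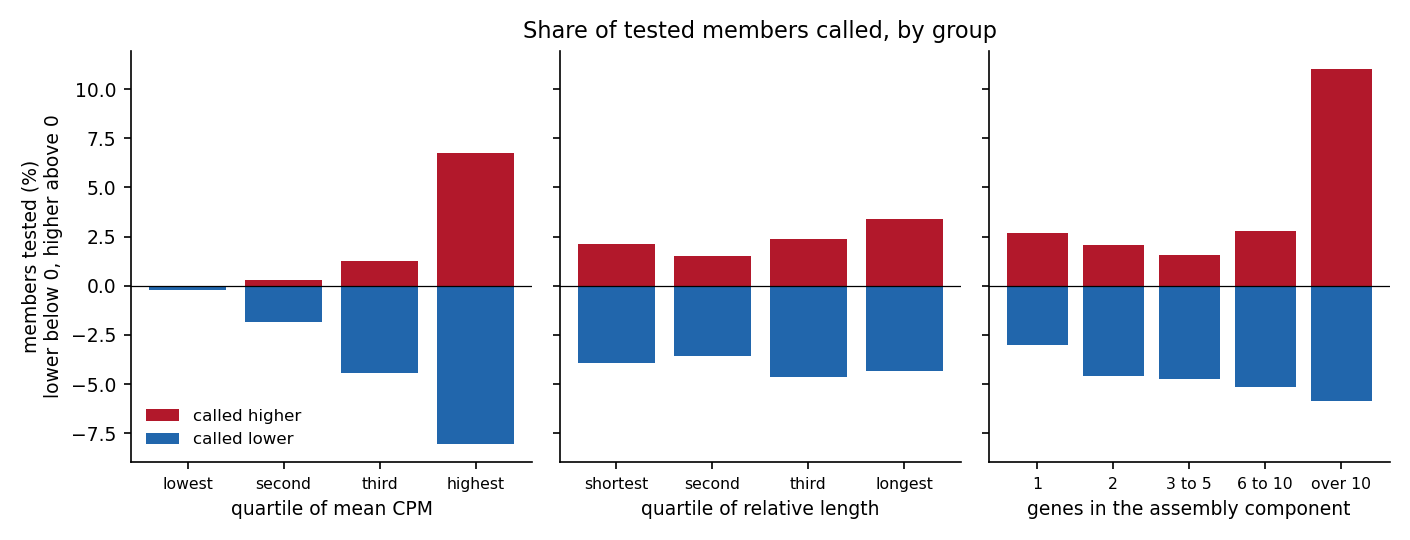
Share of tested members called higher (above 0) and lower (below 0) in Rehydrated against Hydrated (y axis, %), by quartile of mean CPM, by quartile of relative length and by the number of genes in the assembly component. The highest-CPM quartile reached 6.74% higher and 8.03% lower, and components of more than 10 genes reached 11.0% higher.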

How the data were processed

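RNA from drops of a single algal strain was sequenced in 10 libraries, 2 for each of 5 stages, after a kit and 105 custom oligonucleotides had removed ribosomal RNA. Per the submitters' processing notes, CASAVA 1.4, Trimmomatic 0.35, Bowtie2 2.2, RSEM 1.2.28 and DESeq2 were used; the sources used here do not state what each did or how the assembly was made. One deposited table gives, for each gene of the assembly, the expected counts in every library, in which reads that match several sequences are divided. The other deposited table, called the second table here, holds a score that the authors made from the same libraries, length-normalised and TMM-scaled as far as its name and values show. Column names start Scos and titles Ecos, and the columns were matched by replicate number and time code. No file paired identifiers with names, so the pathway lists drawn up for named genes were not applied, and no sequences were used.

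Expected counts were rounded and tested in R 4.3.3 with edgeR 4.0.16 (filterByExpr, minimum count 10, minimum total 15, TMM, quasi-likelihood F-test) on all 10 libraries with stage as the factor and 5 residual degrees of freedom. This left 16190 genes, 13889 of them members; 207 members were not tested. Benjamini-Hochberg adjustment ran over all genes tested. An SE is the absolute fold divided by the square root of F. Alternatives used other scalings and filters, DESeq2 1.42.0, limma 3.58.1, fewer libraries, the replicate number and the library set. The differences between replicates 1 and 2 correlated between stages by -0.044 to 0.41 across genes, so the numbers were not taken to pair the libraries. The Rehydrated libraries differed from each other beyond sampling noise (chi-square per degree of freedom 37.2), as did the Hydrated libraries (20.6).

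The members, groupings and rules were chosen with earlier results of these data known. Named genes were, among called members with no overlap and 10 or more counts in both libraries of the higher stage (319 higher, 575 lower), the largest rise and fall in mean log2 CPM and the highest CPM in each direction.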

Additional observations from a re-analysis of the deposited data

How the results depend on the processing

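The number of members called (908, with 333 higher and 575 lower) ranged from 8 to 2823 when 1 library was left out, with 2 to 798 higher and 6 to 2242 lower. It was 3999 with total counts (146 higher, 3853 lower), 1454 with no filter on low counts (1176 lower), 1813 with DESeq2 (779 and 1034), 275 with limma voom and library weights (46 lower), 486 with the library set as a term (260 lower), and 146 at an adjusted p under 0.01 (87 and 59). On the second table limma called 2093 with a pseudocount of 1 (1787 lower) and 1433 with 0.1 (197 and 1236). In the 4 libraries alone edgeR called 0 (0 higher, 0 lower) and DESeq2, added after the data were seen, 398 (186 and 212). Within the library set that holds Rehydrated edgeR called 0 (0 higher, 0 lower). The other scalings and the fit of the members alone gave 844 to 1010. With the replicate number as a block 887 were called (367 higher, 520 lower), 791 of them shared with the 908; the numbers are not shown to pair the libraries. The cause of these shifts was not tested. Fits with fewer libraries also have fewer degrees of freedom.

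The median log2 fold change over tested members was -1.71 with total counts and ran from -0.56 to -0.15 without 1 of the 4 libraries. Members above or below without overlap numbered 437 and 9556 on total counts. Members lost or gained at 30 or more counts numbered 112 and 4, and 229 were lost after thinning. At 3 or more counts they did not change, since the member rule requires 10. No named gene changed sign in any alternative run. With 1974807 and 2031430 counts per Rehydrated library, falls of low members cannot be measured there.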
